A study of Mus musculus with 6 samples.

Results

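The genes that make cholesterol and fatty acids, with the regulators that switch them on, were examined in endothelial cells (ECs) that had lost *Stk11* and in wild-type (WT) ECs. The list holds 34 genes. A gene was taken as its own locus, that is the table row that carries its symbol and an Ensembl transcript, and 30 of the 34 were found in this way. The other 4, *Srebf1*, *Acat2*, *Fdps* and *Scd2*, lie in loci that the assembly joined with a neighbouring gene, and their values are given apart and enter no count of levels or differences. All 30 passed the filter on low counts, among 17396 loci tested of the 53530 with an Ensembl transcript and a gene name.

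RNA was sequenced from ECs, the cells that line blood vessels, of 3 *Stk11* ec-/- and 3 WT mouse libraries of C57BL/6 background, with an age of 2 months in the labels. In *Stk11* ec-/- mice, Cre recombinase expressed from the *Cdh5* (VE-cadherin) promoter excises *Stk11* exons 3 to 6. *Stk11* encodes the kinase Lkb1. *Cdh5*-Cre limits the deletion to cells that use this promoter or descend from cells that did. Whether the WT mice carried Cre or a floxed allele, whether a library came from 1 animal, and the tissue the ECs came from are not given in the labels.

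Cells make cholesterol from acetyl-CoA through the mevalonate pathway, and palmitate from the same precursor through acetyl-CoA carboxylase and fatty acid synthase. Both branches are switched on by the SREBP transcription factors, encoded by *Srebf1* and *Srebf2*. Scap carries SREBP out of the endoplasmic reticulum when sterols are low, and Insig proteins hold it back when sterols are high. Lkb1 activates the kinase AMPK, which inhibits acetyl-CoA carboxylase by phosphorylation and is known to restrain SREBP in hepatocytes. An RNA measurement does not see phosphorylation.

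The libraries held between 22179567 and 55545899 counts, of which the 30 genes took between 43288 and 118130, or 0.185% to 0.273% of the tested counts. Levels are given as counts per 1e6 (CPM) after TMM normalization, in the order of replicates 1, 2 and 3. *Stk11* itself had 60.9, 85.0 and 81.9 CPM in the *Stk11* ec-/- libraries and 69.3, 92.0 and 76.0 CPM in the WT libraries. The groups overlapped, and a count over the whole locus does not isolate the removed exons. *Xist*, expressed from the inactive X chromosome, was at 267 to 464 CPM in *Stk11* ec-/- and at 0.598 to 1.18 CPM in WT libraries, and the Y-linked *Kdm5d* was at most at 0.171 CPM in *Stk11* ec-/- and at least at 8.67 CPM in WT. Sex therefore coincided with genotype, and the effects of sex and genotype on every value that follows cannot be told apart.

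The libraries also differed in cell type markers within each genotype. The summed level of 15 endothelial genes, *Cdh5* among them, was 1656, 3361 and 308 CPM in *Stk11* ec-/- and 936, 652 and 444 CPM in WT. *Stk11* ec-/- replicate 3 and WT replicate 3 were lowest in this sum. Single genes of the list differed. *Kdr*, *Tie1*, *Erg*, *Egfl7*, *Cldn5*, *Robo4* and *Mmrn2* were higher in WT replicate 3 than in WT replicates 1 and 2, and the other genes were not. In *Stk11* ec-/- replicate 3, *Kdr* was above replicate 1 and *Vwf* above replicate 2. The sum of the 10 fibroblast genes, led by collagens, was highest in both replicates 3, at 14820 and 7140 CPM against 445 to 3781 CPM elsewhere. In the 10 mural cell genes, led by the smooth muscle actin *Acta2*, the same 2 libraries were at 4748 and 9953 CPM, and the others at 470 to 1185 CPM. Hepatocyte genes were detected in *Stk11* ec-/- replicate 1 (104 CPM summed over 7 genes) and in WT replicates 1 and 2 (198 and 166 CPM), and were at 0 or near it in the other libraries. The 10 adipocyte markers summed to 226, 161 and 32.9 CPM in *Stk11* ec-/- and 408, 543 and 49.4 CPM in WT. *Plin4*, *Fabp4* and *Pparg* carried these sums, whereas the defining genes *Adipoq*, *Plin1*, *Cidec* and *Lep* were at or near 0 in every library. Mesothelial and epithelial genes, led by *Msln*, summed to 496, 81.8 and 536 CPM in *Stk11* ec-/- and 676, 1869 and 117 CPM in WT, and haematopoietic genes to 9.57 to 37.2 CPM over the libraries. Fewer cells of a type and less RNA per cell cannot be told apart in such bulk RNA.

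**Figure D1:**
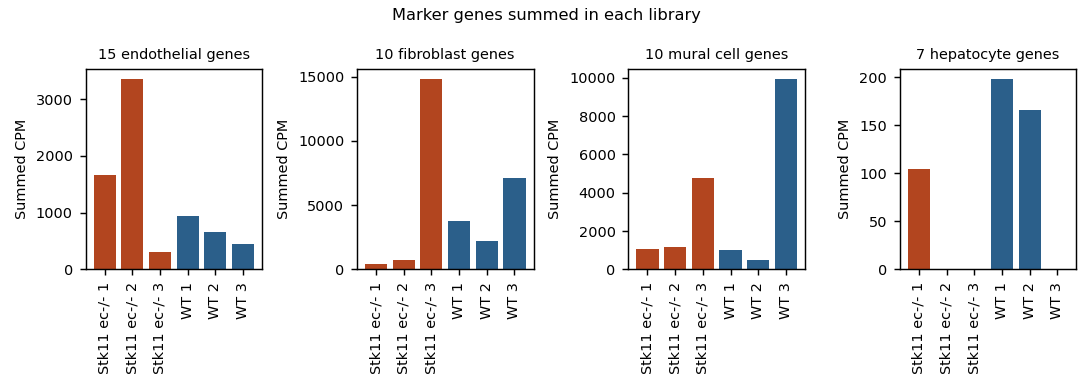
Summed CPM of 4 marker lists (linear axes from 0) in the 3 *Stk11* ec-/- libraries (red bars) and the 3 WT libraries (blue bars). The endothelial sum was highest in *Stk11* ec-/- replicate 2 (3361 CPM), the fibroblast and mural sums were highest in replicate 3 of each genotype, and hepatocyte genes stood out in 3 libraries across both genotypes.

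Per transcript length, the genes spanned a wide range. *Fasn*, fatty acid synthase, had the highest mean over the 6 libraries, 46.2 FPKM (fragments per kilobase of transcript, scaled to library size), followed by the citrate lyase *Acly* at 40.6 FPKM and the desaturase *Fads1* at 27.2 FPKM. At the other end stood *Acacb*, the mitochondrial form of acetyl-CoA carboxylase, at 0.785 FPKM, *Acss2* at 0.920 FPKM and *Pmvk* at 1.06 FPKM. Within this order neighbours overlapped. *Fasn* ranged from 34.0 to 66.8 FPKM and *Acly* from 28.3 to 55.0 FPKM over the libraries. Among the cholesterol genes with a locus of their own, *Ebp* (12.5 FPKM) and *Mvk* (11.3 FPKM) were highest, and *Idi1* (2.09 FPKM), *Lss* (1.61 FPKM) and *Pmvk* were lowest.

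**Figure D2:**
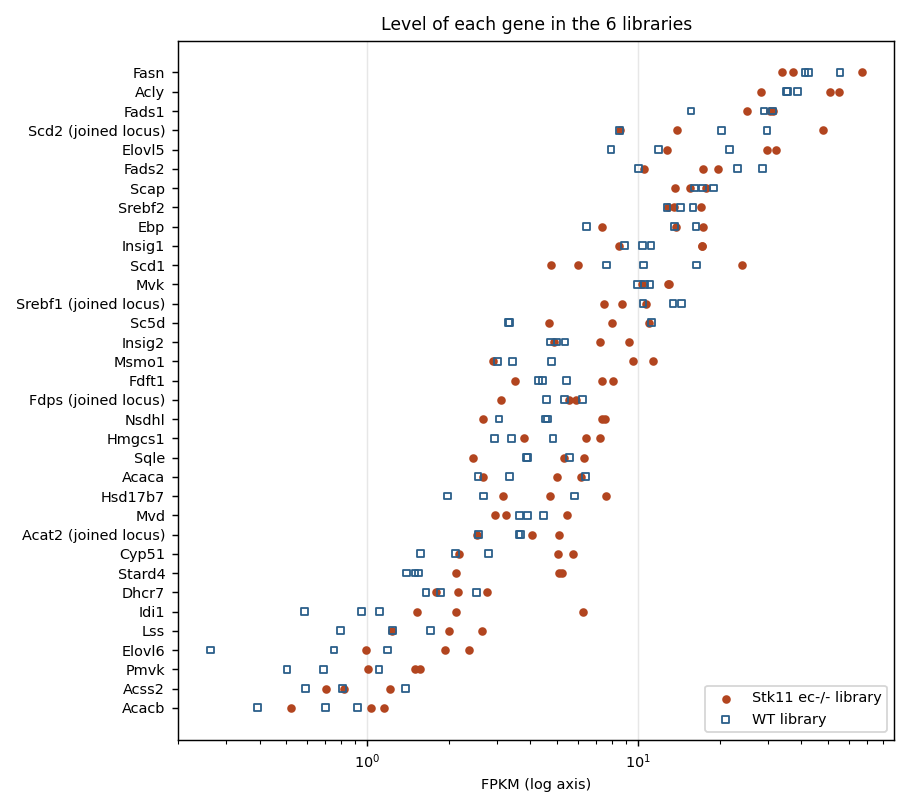
FPKM (log axis) of all 34 genes, ordered by their mean, with filled circles for *Stk11* ec-/- libraries and open squares for WT libraries. *Fasn* and *Acly* sat at the top and *Acacb* at the bottom, and the spread between libraries of 1 genotype was wide for *Elovl6*, *Idi1* and *Scd1*.

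Between genotypes, no gene of the list passed the test across all loci. By the quasi-likelihood test of edgeR, 0 of the 30 were at an adjusted p under 0.05, their adjusted p ranged from 0.640 to 0.987, and 0.0747% of all loci passed (13 of 17396). DESeq2 called 0 of the 30, where 1.24% of all loci passed (216 of 17396), and limma on log2(FPKM + 1) called 0, where 0.109% did (19). At an unadjusted p under 0.05, 2 of 30 were higher in *Stk11* ec-/- ECs and 0 were lower, where 4.36% and 2.97% of all loci were. DESeq2 and limma each found the same 2 genes, *Idi1* and *Stard4*. The log2 fold change was above 0 for 15 genes and below 0 for 15, with a median of 0.01 beside 0.02 over all loci tested. The split depended on scaling, since with limma on log2(FPKM + 1) 25 of the 30 were above 0, with a median of 0.27 beside 0.14 over all loci. Every library of *Stk11* ec-/- lay above every WT library for 3 of 30 genes, against 7.7% of all loci, and below for 0 of 30, against 6.59%. In FPKM as the authors deposited it, which has no TMM scaling, the counts were 2 of 30 above, *Idi1* and *Stard4*, against 10.7% of all loci, and 0 below, against 2.99%. This second count was added after the data were seen.

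**Figure D3:**
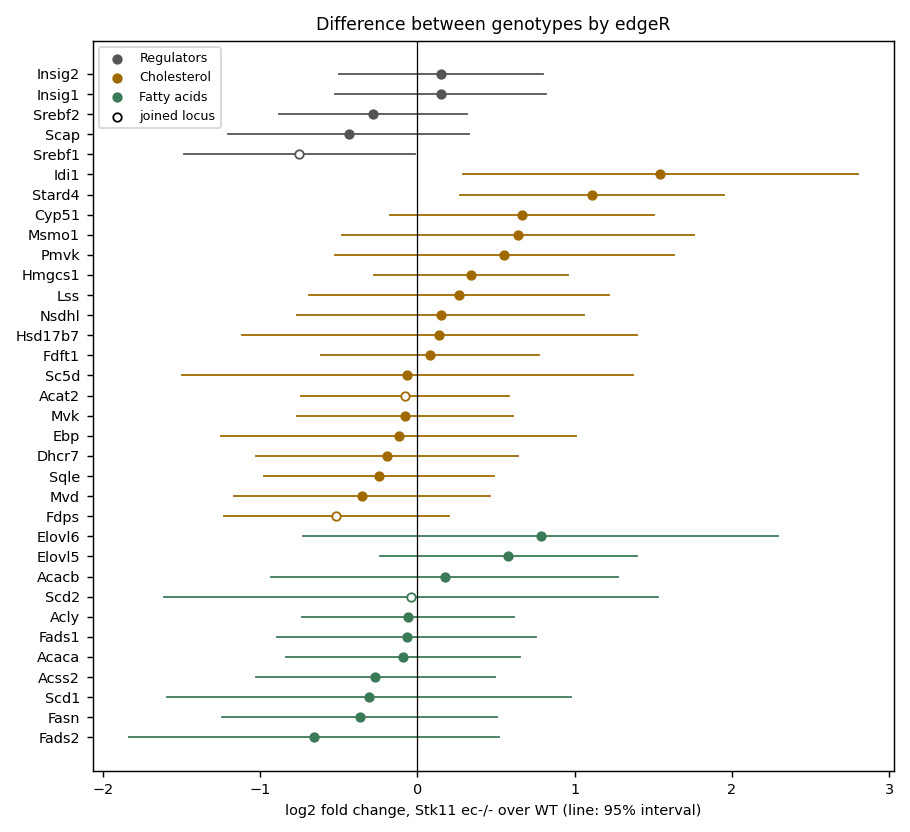
Log2 fold change of *Stk11* ec-/- over WT by edgeR for each gene (point) with its 95% interval (line), grouped as regulators, cholesterol and fatty acid genes. Open points are the 4 joined loci, and the intervals of *Idi1* (0.29 to 2.80) and *Stard4* (0.27 to 1.95) lay wholly above 0.

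The regulators did not pass the test in either direction. *Srebf2*, whose product mainly drives the cholesterol genes, measured 102, 133 and 132 CPM in *Stk11* ec-/- ECs and 131, 139 and 177 CPM in WT. The ranges overlapped, with a log2 fold change of -0.28 (SE 0.26, 95% interval -0.88 to 0.31, edgeR adjusted p = 0.832). For *Scap*, the SREBP escort, the levels were 107, 126 and 191 CPM against 137, 214 and 221 CPM, and the log2 fold change was -0.44 (SE 0.33, edgeR adjusted p = 0.787). *Stk11* ec-/- replicates 1 and 2 were below all WT libraries, and replicate 3 was not. For the RNA of both retention proteins the ranges overlapped, with 95% intervals of the log2 fold change from -0.52 to 0.82 (*Insig1*) and from -0.50 to 0.80 (*Insig2*). *Insig1*, itself a target of SREBP, was at 55.8, 57.5 and 37.7 CPM against 39.3, 41.9 and 55.0 CPM (log2 fold change 0.15, SE 0.29, edgeR adjusted p = 0.924). *Insig2* was at 33.5, 27.2 and 24.3 CPM against 21.4, 25.2 and 30.0 CPM (log2 fold change 0.15, SE 0.28, edgeR adjusted p = 0.919). Both were lowest in replicate 3 among the *Stk11* ec-/- libraries and highest in replicate 3 among the WT libraries.

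*Srebf1*, which encodes the SREBP forms that mainly drive fatty acid genes, was counted in a locus joined with the microRNA gene *Mir6922* (GRCm38 chr11:60199089-60222796). That locus was at 53.6, 47.7 and 90.4 CPM in *Stk11* ec-/- and at 97.1, 120.0 and 105 CPM in WT, so all 3 *Stk11* ec-/- libraries were below WT in CPM. In FPKM the groups overlapped, with *Stk11* ec-/- replicate 3 at 10.7 and WT replicate 3 at 10.4 FPKM. The means were 63.9 ± 23.1 and 107 ± 11.6 CPM (SD, n = 3 each). The log2 fold change was -0.75 (SE 0.31, 95% interval -1.48 to -0.02), with an unadjusted p of 0.0459 and an edgeR adjusted p of 0.673, and it did not pass.

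Of the 16 genes of cholesterol synthesis and transport with their own locus, 10 had a log2 fold change above 0 and 6 below, with a median of 0.14. The median moved with the setting, to 0.41 with limma on log2(FPKM + 1), 0.58 with limma on log2(FPKM + 0.1) and 0.06 to 0.41 with single libraries left out. *Idi1* and *Stard4* were the pair at an unadjusted p under 0.05, and with *Pmvk* they were the 3 genes whose groups did not overlap in CPM. *Idi1* (chr13:8885501-8892451), isopentenyl-diphosphate isomerase, interconverts the isoprene units from which sterols are built. Its level was 23.1, 8.09 and 7.65 CPM in *Stk11* ec-/- and 3.84, 5.91 and 3.54 CPM in WT. Replicate 1 of *Stk11* ec-/- stood far above the other 5 libraries, and the other *Stk11* ec-/- libraries lay closer to WT replicate 2, the highest WT library, than to it. The log2 fold change was 1.54 (SE 0.54, 95% interval 0.29 to 2.80, unadjusted p = 0.0224, edgeR adjusted p = 0.662). Without *Stk11* ec-/- replicate 1 it was 0.84 with an unadjusted p of 0.102. The unadjusted p was 0.0655 without WT replicate 1, 0.0628 without WT replicate 3 and 0.0512 with the replicate block, so the call at an unadjusted p under 0.05 was lost under each of these 4 settings. Hepatocyte genes summed to 104 CPM in *Stk11* ec-/- replicate 1 and to 198 and 166 CPM in WT replicates 1 and 2. The part of hepatocyte RNA in the level of *Idi1* was not tested. A paralog, *Idi2*, is known in mouse, and how the counting shared reads between close copies is not given in the sources used here.

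*Stard4* (chr18:33199355-33213862) encodes a soluble protein that moves cholesterol between membranes. Its level was 30.0, 31.8 and 17.1 CPM in *Stk11* ec-/- and 8.91, 13.1 and 14.4 CPM in WT. Replicates 1 and 2 of *Stk11* ec-/- were high, and replicate 3 was just above the WT libraries. This gene had the smallest p of the list, with a log2 fold change of 1.11 (SE 0.36, 95% interval 0.27 to 1.95, unadjusted p = 0.0162, edgeR adjusted p = 0.640). Leaving out single libraries gave 0.94 to 1.35, and the unadjusted p was 0.0523 without WT replicate 1 and 0.0545 without *Stk11* ec-/- replicate 2.

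*Pmvk*, phosphomevalonate kinase, was the least abundant gene of the branch, at 2.70, 2.90 and 2.49 CPM in *Stk11* ec-/- and 2.17, 1.85 and 1.51 CPM in WT. Its groups were separate in CPM and overlapped in FPKM, where *Stk11* ec-/- replicate 3 was at 1.01 and WT replicate 1 at 1.10 FPKM. The log2 fold change of 0.55 (SE 0.46, 95% interval -0.53 to 1.63) had an unadjusted p of 0.268. *Hmgcs1*, HMG-CoA synthase at the entry to the pathway, was at 31.0, 36.1 and 25.2 CPM against 25.5, 24.0 and 23.4 CPM. *Stk11* ec-/- replicate 2 was the highest library, and replicate 3 was within the WT range (log2 fold change 0.34, SE 0.26, edgeR adjusted p = 0.795).

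Further down the pathway, *Cyp51*, which demethylates lanosterol, was at 23.3, 27.6 and 13.8 CPM in *Stk11* ec-/- and 14.1, 10.5 and 16.1 CPM in WT (log2 fold change 0.67, SE 0.36, edgeR adjusted p = 0.714). *Msmo1*, a methylsterol oxidase that acts later in the pathway, was at 72.7, 63.9 and 25.6 CPM against 21.3, 32.1 and 50.5 CPM (log2 fold change 0.64, SE 0.48, edgeR adjusted p = 0.787). Both genes were high in *Stk11* ec-/- replicates 1 and 2 and within the WT range in replicate 3. The remaining 10 genes of the branch had log2 fold changes from -0.35 for *Mvd*, the decarboxylase whose locus lies inside a longer joined locus with *Usp10* on the other strand, to 0.27 for *Lss*, lanosterol synthase. Values above 0 were those of *Lss*, the squalene synthase *Fdft1* and the pair that acts in removing methyl groups from sterols, *Nsdhl* and *Hsd17b7*. Values below 0 were those of *Mvd*, the mevalonate kinase *Mvk*, the squalene epoxidase *Sqle*, the sterol isomerase *Ebp*, the sterol desaturase *Sc5d* and *Dhcr7*, the final reductase of cholesterol synthesis.

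Among the joined loci, the one with *Fdps*, farnesyl diphosphate synthase, also holds *Rusc1* and was at 60.9, 59.4 and 44.1 CPM against 60.2, 68.9 and 106 CPM (log2 fold change -0.51, SE 0.31, unadjusted p = 0.135). That of *Acat2*, which makes acetoacetyl-CoA, joined with *Acat3*, had a log2 fold change of -0.08 (SE 0.28).

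Promoters are shown for 2 genes of the branch because *Hmgcs1* was the only gene, of the 27 with a promoter window, that held a sterol regulatory element (TCACNCCAC, N being any base), and *Idi1* had the largest log2 fold change. The sequences are from RefSeq on GRCm38.p6, from 250 bases before to 50 bases after the start site, written 5′ to 3′ along the gene's strand. The windows are chr13:119690101-119690400 and chr13:8885356-8885655, both on the plus strand. Capitals mark the sterol regulatory element and the NF-Y box CCAAT, which reads ATTGG where it lies on the other strand.
Hmgcs1: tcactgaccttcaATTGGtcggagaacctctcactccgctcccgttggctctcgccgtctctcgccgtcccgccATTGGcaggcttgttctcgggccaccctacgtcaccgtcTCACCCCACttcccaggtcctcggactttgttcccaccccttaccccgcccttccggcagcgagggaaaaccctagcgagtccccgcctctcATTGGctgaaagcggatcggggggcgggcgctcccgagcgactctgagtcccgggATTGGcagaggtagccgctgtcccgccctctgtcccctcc
Idi1: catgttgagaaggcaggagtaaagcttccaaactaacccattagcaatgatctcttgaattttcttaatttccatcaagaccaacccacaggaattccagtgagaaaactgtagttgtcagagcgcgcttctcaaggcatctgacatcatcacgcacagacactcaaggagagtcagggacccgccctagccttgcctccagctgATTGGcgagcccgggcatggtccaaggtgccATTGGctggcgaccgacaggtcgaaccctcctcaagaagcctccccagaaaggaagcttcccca
The sterol regulatory element of *Hmgcs1* starts 137 bases before the start site. Of the 34 genes, 27 had 1 or more such windows, 35 in all, *Srebf1* and *Acat2* among them. TCACNCCAC, on either strand, was in 1 of the 35 windows and in 1.24% of 32851 promoter windows. CCAAT, searched likewise, was in 23 of the 35 windows (65.7%) and in 37.4% of all windows. The E-box CACGTG was in 7 of the 35 and in 7.15% of all, in the windows of *Scap*, *Insig1*, *Hsd17b7*, *Sc5d*, *Dhcr7* and *Elovl5*. The windows of *Scap* overlap and hold the same E-box, which was counted in each of them. These matches are descriptions of letters in a short window. CACGTG reads the same on both strands, and TCACNCCAC can share its last 3 bases with it, which did not occur in these windows.

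The 10 fatty acid genes with their own locus had a median log2 fold change of -0.08 (0.17 with limma on log2(FPKM + 1)), with 3 above 0 and 7 below by edgeR, and 0 at an unadjusted p under 0.05. *Fasn* was at 425, 793 and 533 CPM in *Stk11* ec-/- and 529, 685 and 1044 CPM in WT. The ranges overlapped (means 584 ± 189 and 753 ± 264 CPM, SD, n = 3 each). The log2 fold change was -0.37 (SE 0.37, 95% interval -1.24 to 0.51, edgeR adjusted p = 0.853). *Acss2*, which makes acetyl-CoA from acetate, was at 13.0, 9.11 and 10.3 CPM against 16.1, 12.6 and 10.4 CPM (log2 fold change -0.27, SE 0.32). Its locus overlaps *Gss* on the other strand by 22086 bases, and whether the counting used strand is not given.

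*Acly*, which makes cytosolic acetyl-CoA from citrate, had a log2 fold change of -0.06 (SE 0.29, 95% interval -0.74 to 0.61). Outside the rule for named values, the acetyl-CoA carboxylases are given as the enzymes that AMPK phosphorylates. *Acaca* was at 89.2, 114 and 65.5 CPM in *Stk11* ec-/- and 124, 86.8 and 75.3 CPM in WT, and its log2 fold change was -0.09 (SE 0.32, 95% interval -0.84 to 0.65). *Acacb* was at 11.6, 5.52 and 14.3 CPM against 7.82, 13.5 and 6.56 CPM (log2 fold change 0.17, SE 0.47, 95% interval -0.93 to 1.28). For both, each genotype held high and low libraries.

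Several desaturases and elongases varied widely between libraries. *Scd1*, stearoyl-CoA desaturase, which puts the first double bond into saturated fatty acids, was at 124, 31.9 and 33.3 CPM in *Stk11* ec-/- and 91.8, 77.5 and 64.2 CPM in WT. *Stk11* ec-/- replicate 1 was the highest library of all and the other *Stk11* ec-/- libraries were the lowest. The log2 fold change was -0.31 (SE 0.55, edgeR adjusted p = 0.918), and without replicate 1 it was -1.25 (unadjusted p = 0.00635, edgeR adjusted p = 0.829). The 3 libraries highest in *Scd1* were the 3 in which hepatocyte genes were detected, and also the 3 with the highest adipocyte sums. Of the mesothelial and epithelial genes, *Msln*, *Krt18* and *Krt19* were highest in the same 3 libraries. *Upk3b* and *Wt1* were highest in *Stk11* ec-/- replicate 3, where the sum of that list (536 CPM) was above that of *Stk11* ec-/- replicate 1 (496 CPM). Among the adipocyte genes, *Plin4* was highest in the same 3 libraries, and *Fabp4* and *Pparg* were not. *Fabp4* and *Pparg* were at 97.7 and 24.5 CPM in *Stk11* ec-/- replicate 2. They were lower in WT replicate 1 (52.8 and 11.1 CPM) and WT replicate 2 (55.9 and 16.9 CPM). The part of any of these cell types in the level of *Scd1* was not tested. The joined locus of *Scd2*, with *Scd3* and *Mir5114*, was at 81.1, 468 and 179 CPM against 209, 409 and 132 CPM, a wide spread within both genotypes (log2 fold change -0.04, SE 0.67).

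*Elovl5*, an elongase of polyunsaturated fatty acids, was at 118, 114 and 64.7 CPM in *Stk11* ec-/- and 87.4, 63.4 and 48.0 CPM in WT. It had the smallest p of the fatty acid genes (log2 fold change 0.58, SE 0.35, unadjusted p = 0.139, edgeR adjusted p = 0.740), and replicates 1 and 2 of *Stk11* ec-/- were above all WT libraries. *Elovl6*, which elongates palmitate, was at 13.1, 16.6 and 9.15 CPM against 1.94, 7.39 and 13.2 CPM. The low value was WT replicate 1, and the log2 fold change of 0.78 (SE 0.64) had an edgeR adjusted p of 0.811. *Fads2*, a desaturase of polyunsaturated fatty acids, was at 60.0, 37.6 and 92.7 CPM against 87.7, 49.98 and 162 CPM (log2 fold change -0.66, SE 0.50, edgeR adjusted p = 0.793). Its highest library in each genotype was replicate 3. *Fads1*, a later desaturase of the same route and its neighbour on chromosome 19, had a log2 fold change of -0.07 (SE 0.35).

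**Figure D4:**
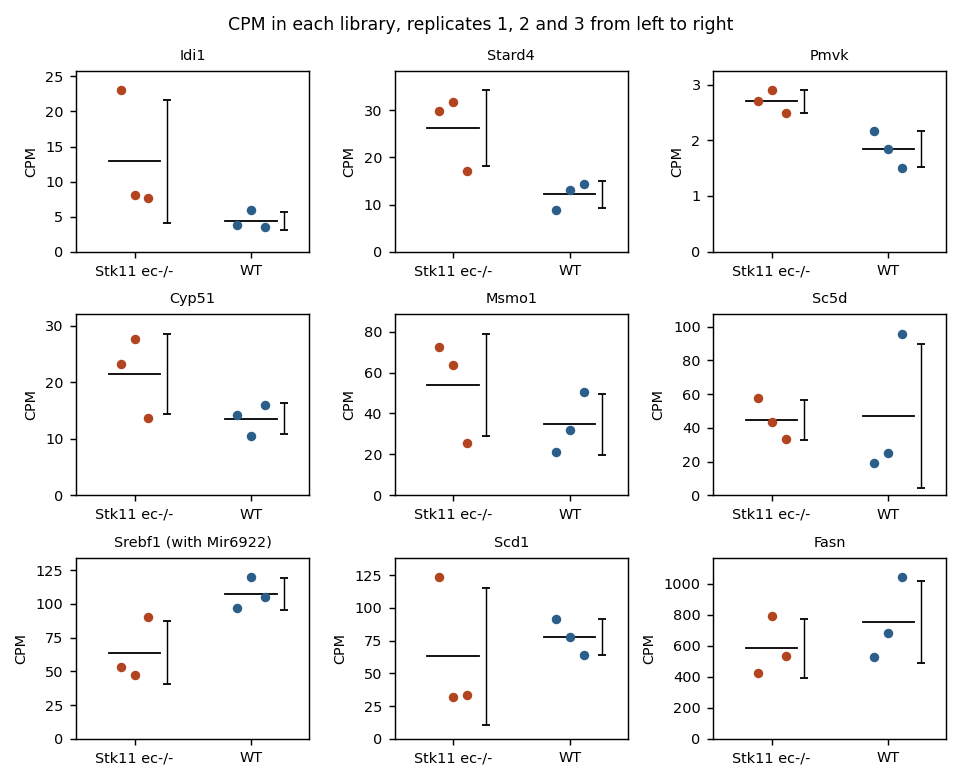
CPM (linear axes from 0) of 9 genes in each library, with points for replicates 1, 2 and 3 from left to right, a horizontal line for the mean and a bar for the SD of 3 libraries. The groups were separate for *Idi1*, *Stard4*, *Pmvk* and the joined *Srebf1* locus and overlapped for the other 5 genes, of which *Sc5d* was highest in WT replicate 3 (96.0 CPM) and *Scd1* in *Stk11* ec-/- replicate 1 (124 CPM).

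The cholesterol genes varied between libraries of the same genotype. Of the 16, 7 had their highest level in *Stk11* ec-/- replicate 2, 5 in WT replicate 3, 2 in *Stk11* ec-/- replicate 1 and 2 in *Stk11* ec-/- replicate 3. On the log2 scale, their median deviation from each gene's own mean was 0.24, 0.31 and -0.14 in *Stk11* ec-/- replicates 1 to 3 and -0.22, -0.25 and 0.23 in the WT replicates. WT replicate 3 was thus on the side of *Stk11* ec-/- replicates 1 and 2, and *Stk11* ec-/- replicate 3 was on the side of WT replicates 1 and 2. *Sc5d* was at 57.5, 43.3 and 33.5 CPM in *Stk11* ec-/- and 19.1, 25.3 and 96.0 CPM in WT. *Hsd17b7*, a sterol ketoreductase, was at 25.3, 42.0 and 23.3 CPM against 15.6, 15.3 and 51.1 CPM. In both, WT replicate 3 was the highest library and the other WT libraries were the lowest. *Lss*, at 29.9, 23.5 and 19.2 CPM against 15.4, 13.1 and 31.8 CPM, was ordered in the same way. These 3 genes were chosen after their values were seen.

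**Figure D5:**
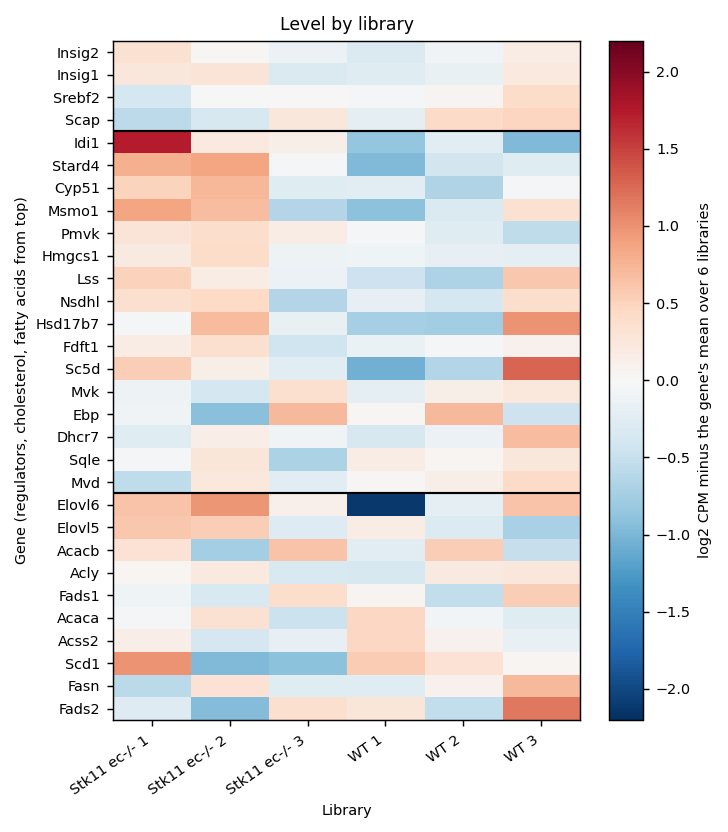
Log2 CPM minus each gene's mean over the 6 libraries (colour, red above and blue below) for the 30 genes, with regulators, cholesterol and fatty acid genes from top to bottom. Of the 16 cholesterol genes, 10, 14 and 10 were above their mean in *Stk11* ec-/- replicates 1 and 2 and WT replicate 3, and *Elovl6* was lowest in WT replicate 1.

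*Stk11* ec-/- replicate 3 and WT replicate 3 also had the highest fibroblast and mural sums and the lowest endothelial sums, an order that single endothelial genes did not all share. The cholesterol medians of replicate 3 lay on the side of replicates 1 and 2 of the other genotype, at -0.14 in *Stk11* ec-/- and 0.23 in WT. Leaving both libraries out therefore favours higher calls among these genes, and the count of such calls is a description. With both left out, 7 of 30 genes were higher in *Stk11* ec-/- ECs at an unadjusted p under 0.05, where 7.28% of all loci were, and 0 were at an adjusted p under 0.05. The 7 were *Idi1*, *Stard4*, *Msmo1*, *Sc5d*, *Cyp51*, *Hsd17b7* and *Lss*, all in the cholesterol group. In these 4 libraries the sums of all 7 marker lists also separated by genotype. Endothelial genes summed to 1656 and 3361 CPM in *Stk11* ec-/- against 936 and 652 CPM in WT, fibroblast genes to 445 and 743 CPM against 3781 and 2188 CPM, and adipocyte genes to 226 and 161 CPM against 408 and 543 CPM. Mural cell genes were at 1042 and 1185 CPM against 1028 and 470 CPM, hepatocyte genes at 104 and 0.103 CPM against 198 and 166 CPM, mesothelial and epithelial genes at 496 and 81.8 CPM against 676 and 1869 CPM, and haematopoietic genes at 12.3 and 9.57 CPM against 16.2 and 37.2 CPM. The endothelial and mural sums were higher in *Stk11* ec-/- and the other 5 were lower. Single genes did not all follow their list. *Pdgfrb*, *Cspg4*, *Notch3* and *Rgs5* were lower in both *Stk11* ec-/- libraries, whereas *Acta2*, *Tagln*, *Cnn1*, *Mcam* and *Myh11* were higher. *Plin4* carried the lower adipocyte sum, at 89.7 and 38.6 CPM against 344 and 470 CPM. *Fabp4* (114 and 97.7 CPM against 52.8 and 55.9 CPM) and *Pparg* were higher in *Stk11* ec-/-. *Msmo1* had a log2 fold change of 1.35 (SE 0.34) and *Sc5d* of 1.18 (SE 0.34) in this comparison, and the smallest edgeR adjusted p of the list was 0.271. The median was 0.58 for the 16 cholesterol genes, -0.03 for the 10 fatty acid genes and 0.02 for all loci. Without *Stk11* ec-/- replicate 3 alone, 5 of 30 were higher (*Idi1*, *Stard4*, *Cyp51*, *Msmo1* and *Elovl5*), where 6.26% of all loci were. Without WT replicate 3 alone, 3 were (*Hsd17b7*, *Sc5d* and *Stard4*), where 4.99% of all loci were, and the log2 fold change of *Sc5d* turned from -0.06 to 1.01. Without WT replicate 1 the count was 0, where 4.12% of all loci were. The pair of libraries was singled out with earlier results of these data known. *Stk11* ec-/- replicate 2, the highest library in the endothelial sum, was the highest of all in 7 cholesterol genes. WT replicate 3, at 444 CPM in that sum, was the highest in 5. The part of the cell mixture in these levels was not tested.

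Across the 6 libraries, pairs of cholesterol genes had a median Pearson correlation of 0.299 in log2 CPM (120 pairs, 79 above 0). The median was -0.0909 for 45 pairs of fatty acid genes, 0.0137 for 160 pairs of 1 cholesterol and 1 fatty acid gene, and near 0 for pairs of loci spaced through the table. The same 6 libraries underlie every pair, so these values describe the libraries and carry no test.

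Other genes of the pathways were read from lists alongside. Of 15 further cholesterol genes, 11 were tested and 0 passed at an unadjusted p under 0.05 in either direction. The log2 fold change was above 0 for 7 of the 11 and below 0 for 4. In CPM, every *Stk11* ec-/- library lay above WT for 0 of the 11 and below WT for 1, against 7.7% and 6.59% of all loci. *Ggps1*, which makes geranylgeranyl diphosphate, had a log2 fold change of 1.15 (SE 0.55, unadjusted p = 0.0727). *Acat1*, mitochondrial acetoacetyl-CoA thiolase, had a log2 fold change of 0.43 (SE 0.38).

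Of 31 further fatty acid genes, 23 were tested. At an unadjusted p under 0.05, 1 was higher in *Stk11* ec-/- ECs and 0 were lower, a share close to the 4.36% of all loci that were higher. That gene was *Me1*, malic enzyme, a source of NADPH for fatty acid synthesis, at 101, 130 and 84.1 CPM in *Stk11* ec-/- and 56.3, 69.4 and 75.2 CPM in WT. Its groups did not overlap (log2 fold change 0.65, SE 0.27, unadjusted p = 0.0457, edgeR adjusted p = 0.673). *Mcat*, of mitochondrial fatty acid synthesis, had a log2 fold change of -0.73 (SE 0.32), and *Tecr*, the last enzyme of each elongation round, of -0.62 (SE 0.28). Every *Stk11* ec-/- library lay above WT for 1 of the 23 genes, *Me1*, and below WT for 4, against 7.7% and 6.59% of all loci. The 4 were *Tecr*, the citrate carrier *Slc25a1*, *Mlx* and *Nr1h2*, the last 3 named after their values were seen, with log2 fold changes from -0.62 to -0.41. In FPKM the groups of these 4 genes overlapped, those of *Me1* stayed separate, and 2 of the 23 genes lay above WT (*Me1* and the dehydratase *Hacd2*) and 1 below (*Mcat*). Of 9 genes listed as targets of the sterol sensor LXR, 5 were tested and 0 passed at an unadjusted p under 0.05, with log2 fold changes of -0.50 for *Lpcat3* (SE 0.28), -1.66 for *Apoe* (SE 1.17) and 0.97 for *Abcg1* (SE 1.01). The *Apoe* level ran from 2.46 CPM in *Stk11* ec-/- replicate 2 to 108 CPM in WT replicate 1.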

How the data were processed

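The authors deposited 1 table of all 6 libraries with a raw count and an FPKM value per assembled locus. Alignment with HISAT2 to GRCm38 and the use of StringTie are given in the methods, and the processing notes of the submitters list mm9, BWA, TopHat and Cufflinks. Versions and strand use are not given in the sources used here. Of 26701 loci with an Ensembl ID that is in GENCODE M21 (GRCm38), 26036 had the same start and end. The authors' FPKM is scaled to transcript length and library size. Every value column was matched to a library, and 0 were left unmatched.

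Loci with an Ensembl transcript and a name entered the test. Loci without an Ensembl transcript held 5.15% to 13.8% of a library's counts and those without a name 0.359% to 0.887%, and both entered neither library sizes nor tests. The table gives both units, so the count test was used. Counts were tested with edgeR 4.0.16 in R 4.3.3 (TMM, default filter on low counts, quasi-likelihood), with genotype as the factor and p adjusted by the Benjamini-Hochberg method over 17396 loci at 0.05. The common biological coefficient of variation was 0.628. Intervals are 95% intervals of the fit. Nothing says that replicates came from separate animals, so p measures the spread between libraries, which may be technical. Between any pair of libraries the counts differed by more than sampling noise.

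The 34 genes and the lists were chosen with earlier results of these data known. All 34 are named. Values per library are given for the regulators, for genes at an unadjusted p under 0.05 or with separate groups, and for those with the smallest p in the cholesterol and fatty acid lists until 6 are shown, and up to 3 genes represent each further list. Some genes of the further lists are not reported here.

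Alternatives were median-ratio size factors, no filter, a mean FPKM of at least 5, DESeq2 1.42.0, limma 3.58.1 on log2(FPKM + 1) or log2(FPKM + 0.1), a replicate block, all named loci, no structural RNAs, each library left out, and replicate 3 of both genotypes left out. The steps were tested on simulated data. Tables, motif searches and plots used Python 3.11.15, pandas 2.3.3, numpy 2.4.6 and matplotlib 3.10.9.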

Additional observations from a re-analysis of the deposited data

Results flagged for a closer look

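An assembled locus that carries the symbol *Elovl5* but no Ensembl transcript (GRCm38 chr9:77986243-77986719, beyond the end of the annotated gene) stood outside the comparisons. It held 57 counts in *Stk11* ec-/- replicate 3 and 0 in each of the other 5 libraries, where a count of 0 allows up to 3. *Elovl5* itself was at 64.7 CPM in that library, the lowest of the *Stk11* ec-/- libraries.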

How the results depend on the processing

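At an adjusted p under 0.05, 0 of the 30 genes passed under each of the 16 alternatives. The count higher at an unadjusted p under 0.05 was 0 with a mean FPKM of at least 5, a filter that keeps 15 of the genes and neither *Idi1* nor *Stard4*, 7 with replicate 3 of both genotypes left out, and 0 to 5 with single libraries left out. The count lower was 0 to 1 with single libraries left out, the 1 being *Scd1* without *Stk11* ec-/- replicate 1. The median log2 fold change was 0.27 with limma on log2(FPKM + 1), 0.35 with limma on log2(FPKM + 0.1) and 0.27 without replicate 3 of both genotypes, and -0.02 to 0.20 with single libraries left out. The FPKM scale moved the median of all loci to 0.14 and 0.29, and 25 of the 30 genes were then above 0 with log2(FPKM + 1). The methods call the analysis paired without saying what pairs the libraries. Over all tested loci, the correlation of deviations between libraries with the same number was 0.23, -0.19 and 0.05, which did not show pairs. With the replicate block the count higher was 1 (*Stard4*) and the median 0.08. With 3 libraries per genotype and a biological coefficient of variation of 0.628, the 95% interval of the log2 fold change ran from -0.88 to 0.31 for *Srebf2*, the narrowest of the 30, and from -0.73 to 2.29 for *Elovl6*, the widest.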
